A study of Zea mays with 6 samples.

Results

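This account covers 246 maize genes whose transcripts were nearly lost from a single library, mop1 replicate 3, while they were present in all 5 other anther libraries. A gene was chosen where its normalized count in mop1 replicate 3 was at least 8-fold below the lowest of the other 5 libraries, and where that lowest value was at least 20. Of 39756 genes in the table, 19724 outside a left-out interval of 368 gene IDs had at least 20 in each of the other 5 libraries, and 246 of them, 1.25%, met the 8-fold limit. In the left-out interval, 6 genes met both limits, and these were not included. The choice rests on the measured values of all 6 libraries, so the low level in mop1 replicate 3 is a description and was not tested.

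RNA sequencing was done on immature anthers holding meiocytes in meiosis I, in 3 libraries labelled mop1 (mop1/mop1) and 3 labelled WT (+/+). All were in a Mo17/B73 hybrid background. The labels do not say whether the libraries came from separate plants, so the p-values reflect the spread between libraries, which may be technical. They give no anther length, and they name the same meiotic stage for every library. Reads recovered from the table came to between 22635163 and 26531475 per library, with the highest number in mop1 replicate 3. By the choice of genes that library stands apart from the other 5. The comparison of mop1 with WT is therefore given with and without it, and fits of single genes mainly without it. The gene IDs carry no names, and 0 of 39756 matched the table of reference genes used here. For this reason the transcript of mop1, markers of the anther cell layers, roles of the genes and their sequences were not analysed here, and at most 4 genes are given by ID.

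An anther is built of meiocytes at its centre and concentric wall layers around them, of which the innermost, the tapetum, feeds the meiocytes and later supplies material for the pollen wall. Transcripts of the tapetum and of the meiocytes are switched on and off in a close sequence as the anther lengthens, so that samples a short time apart can differ in many genes. The product of mop1 is an RNA-dependent RNA polymerase that makes double-stranded RNA for small interfering RNAs, which in turn guide DNA methylation to transposons close to genes. Wall and meiocyte RNA were measured together in these samples, so fewer cells of a type and less RNA per cell cannot be told apart.

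The 246 genes took a small part of the normalized total in 5 libraries and almost none of it in mop1 replicate 3. They took 1.43%, 1.09% and 0.0277% of the normalized total in mop1 replicates 1, 2 and 3, against 1.72%, 2.55% and 1.31% in WT replicates 1, 2 and 3. Their median normalized count was 309 in mop1 replicate 1, 140 in mop1 replicate 2 and 2.91 in mop1 replicate 3, against 304, 520 and 178 in WT replicates 1, 2 and 3. The values of mop1 replicates 1 and 2 overlapped those of WT, and mop1 replicate 3 stood far below both. The median over all 19724 genes with at least 20 in the other 5 libraries was much the same everywhere, from 487 to 506.

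**Figure D1:**
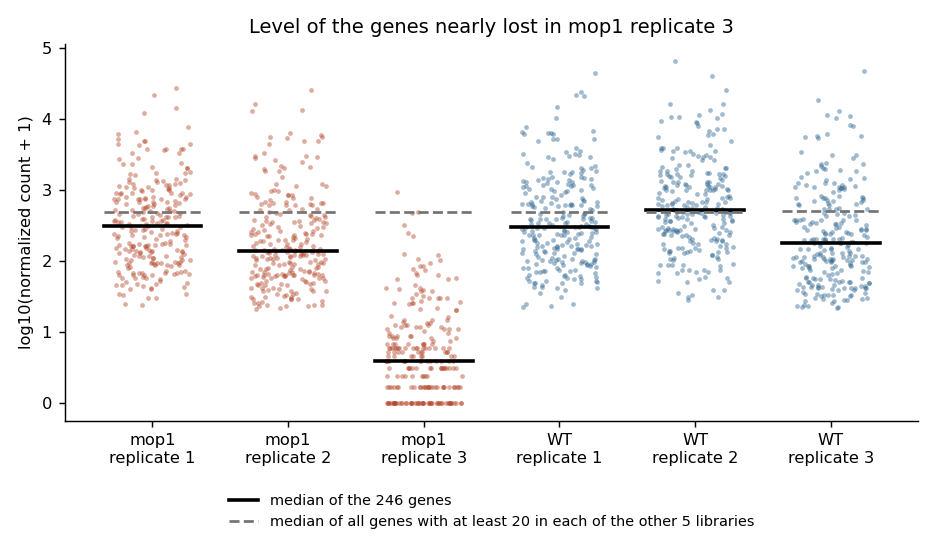
Normalized count of each of the 246 genes (points, log10 of the value + 1) in the 3 mop1 and 3 WT libraries, with the median of these genes (solid line) and the median of all 19724 genes with at least 20 in each of the other 5 libraries (dashed line). The solid line lies at 2.91 normalized counts in mop1 replicate 3 and between 140 and 520 in the other libraries, while the dashed lines are level.

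No other library had a comparable set by the same 2 limits. With these applied to each other library in turn, the number of genes at least 8-fold below all the rest was 4 in mop1 replicate 1, 1 in mop1 replicate 2, 0 in WT replicate 1, 5 in WT replicate 2 and 0 in WT replicate 3. The rest then includes mop1 replicate 3, so none of the 246 genes could count for another library. The opposite pattern was rare in every library. In mop1 replicate 3, 1 gene lay at least 8-fold above all other libraries with a value of at least 160, and the other libraries had 0 to 4 such genes.

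The loss was deep for most of the 246 genes. Of these, 53 were without a read in mop1 replicate 3, 56 had 1 to 3 reads and 137 had more than 3 reads. The remaining level was a median of 3.38% of the lowest other library, with quartiles of 0.378% and 7.62%, and 75 genes were at 1% or less. Only 10 genes kept at least 100 normalized counts in mop1 replicate 3. For the 53 genes without a read, a limit of 3 reads in that library (2.18 normalized counts) puts the level at least 9.215-fold to at least 668-fold below the lowest other library. Such limits and the intervals on reads cover counting error only. At some of the 56 genes with 1 to 3 reads, the 95% counting interval of the fold reached below 8. The lowest interval was 2.91 to 49.0, at a gene 9.49-fold below its lowest other library.

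Genes of every count class were included, with a larger share among low ones. Grouped by their lowest value in the other 5 libraries, 75 genes lay from 20 to 50, 94 from 50 to 200, 52 from 200 to 1000 and 25 at 1000 or more. These were 3.86%, 2.07%, 0.566% and 0.618% of all genes of the same class. The median level left in mop1 replicate 3 was similar in the 4 classes, at 2.61%, 3.915%, 2.69% and 3.11% of the lowest other library.

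The gene with the highest lowest value was Zm00001eb383600, with 27646, 25620 and 477 normalized counts in mop1 replicates 1 to 3, against 44836, 65654 and 47544 in WT replicates 1 to 3. All mop1 values lay below all WT values, and mop1 replicate 3 lay 53.7-fold below the lowest other library. In second place, Zm00001eb366340 had 14369, 12983 and 951 normalized counts in mop1 replicates 1 to 3, against 24370, 25551 and 18621 in WT replicates 1 to 3. Here too the genotypes did not overlap, and the drop of mop1 replicate 3 below the lowest other library was 13.6-fold. The choice of genes itself places mop1 replicate 3 below WT. The values of mop1 replicates 1 and 2 both lay below all WT values at 23.7% of all genes tested. The next gene in that order had 21970, 16386 and 34.2 normalized counts in mop1 replicates 1 to 3, against 21467, 40163 and 12869 in WT replicates 1 to 3. In it the first pair of mop1 libraries overlapped WT, and mop1 replicate 3 was 376-fold below the lowest of them. Normalized counts are not divided by gene length, so this order is one of counts and not of transcript number.

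Among the 10 genes with the highest lowest value, those in places 4 to 10 had 3443 to 5935 normalized counts in their lowest other library. In mop1 replicate 3 they had 29.8 to 500.3 normalized counts, which lay 9.92-fold to 115-fold lower. WT replicate 2 was the highest library at 9 of these 10 genes, and mop1 replicate 2 at 1. The 10 genes together made up 50.8% of the summed level of the 246 genes in mop1 replicate 3 and 38.9% to 51.1% in the other libraries.

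**Figure D2:**
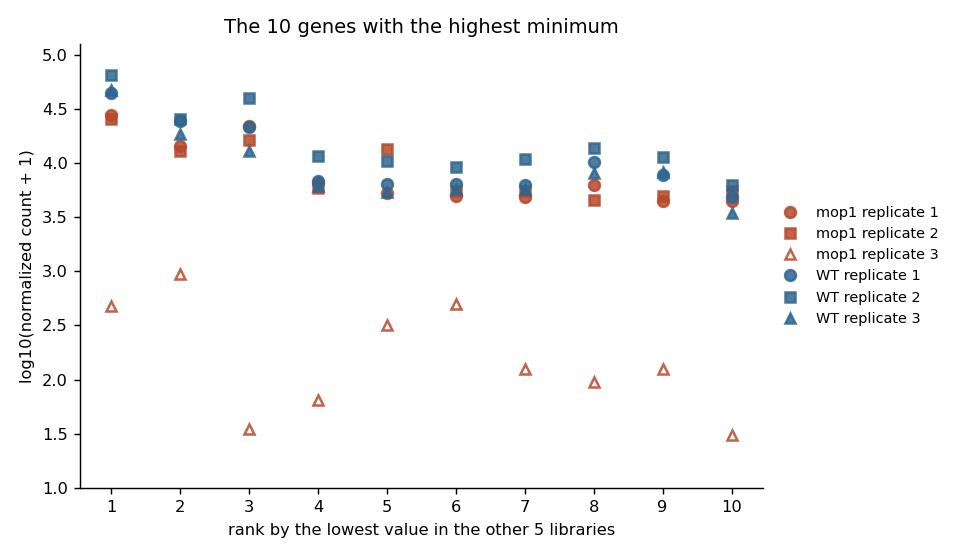
Normalized count (log10 of the value + 1) of the 10 genes with the highest lowest value over the other 5 libraries, by library; filled symbols are the 5 other libraries and open triangles are mop1 replicate 3. The filled symbols of a gene lie within 3.12-fold of one another, and the open triangles lie 9.92-fold to 376-fold below the lowest of them.

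The most complete losses included genes of high count. The highest-ranked gene without a read in mop1 replicate 3 had 2752 and 1870 normalized counts in mop1 replicates 1 and 2, against 2979, 5634 and 1458 in WT replicates 1 to 3. Its level in mop1 replicate 3 was at least 668-fold below the lowest other library. Another gene had 1 read in mop1 replicate 3 and 2548 reads in WT replicate 3, its lowest other library, so that the ratio was 2791 (95% counting interval 500.4 to 110273). The gene in the next row of the table had 4 reads in mop1 replicate 3 and lay 761-fold below its lowest other library. Both neighbours had similar profiles, with 3755 and 3850 normalized counts in mop1 replicate 1, 3081 and 3343 in mop1 replicate 2, against 3193 and 3516 in WT replicate 1, 7232 and 9491 in WT replicate 2, and 2030 and 2213 in WT replicate 3. If neighbours are near-identical copies, reads may have been split between them or dropped, which the table does not show.

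At the edge of the choice, the loss was partial. The 3 genes just inside the 8-fold limit lay 8.07-fold, 8.09-fold and 8.14-fold below the lowest other library, with 19.6, 247 and 84.4 normalized counts in mop1 replicate 3. The 3 just outside lay 7.85-fold to 7.89-fold below, with 3.64 to 65.5 normalized counts. By the second limit, the nearest genes inside had a lowest other value of 20.1 to 20.9 and the nearest outside of 19.1 to 19.9.

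Over the other 5 libraries the 246 genes did not share one level but were graded, and the grade crossed the genotypes. The deviation of each library from a gene's mean over the 5, on the scale log2(normalized count + 1), had a median of 0.06 in mop1 replicate 1 and -0.48 in mop1 replicate 2, against 0.18 in WT replicate 1, 0.87 in WT replicate 2 and -0.41 in WT replicate 3. Over all 19724 genes these medians were -0.03 and -0.04 for the mop1 libraries, and 0.03, 0.01 and 0.04 for the WT libraries. The highest level was thus in WT replicate 2, the lowest were in mop1 replicate 2 and WT replicate 3, and the remaining libraries lay between. A graded level of this kind is possible where libraries differ in anther stage; this was not tested, since the labels give every library the same stage and no gene was matched to a marker.

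Gene by gene the grade was only partly shared. WT replicate 2 was highest, with mop1 replicate 2 and WT replicate 3 the lowest pair, at 90 of 246 genes (36.6%, against 4.22% of all). The 5 libraries stood in 49 different orders, and the commonest held 29 genes, 11.8%. WT replicate 2 was the highest of the 5 libraries at 178 of 246 genes (72.4%, against 3946 of all 19724 genes), and it was the lowest at 0. The lowest library was mop1 replicate 2 at 116 genes (47.2%, against 29.0% of all) and WT replicate 3 at 98 genes (39.8%, against 18.7%). The remaining 32 had their lowest value in mop1 replicate 1, at 24 genes, or WT replicate 1, at 8. At 117 genes, 47.6%, mop1 replicate 2 and WT replicate 3 were both below the other 3 libraries, where 10.4% of all genes had that order.

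**Figure D3:**
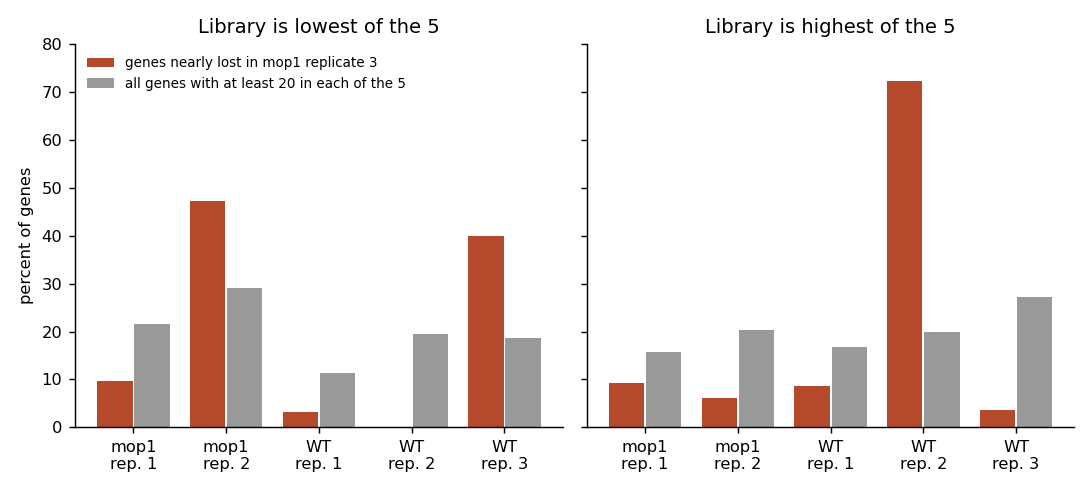
Percent of genes at which each of the 5 other libraries was the lowest (left) or the highest (right), for the 246 genes nearly lost in mop1 replicate 3 and for all 19724 genes with at least 20 in each of the 5. WT replicate 2 was highest at 72.4% of the 246 genes and lowest at none, and mop1 replicate 2 and WT replicate 3 together were lowest at most of them.

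Within WT alone, where no mutant enters, the order was the same at most genes. The values ran from WT replicate 2 over WT replicate 1 to WT replicate 3, high to low, at 179 of 246 genes, or 72.8%, and at 17.9% of all 19724 genes. The remaining orders of the 3 WT libraries each held 2 to 29 of the 246 genes. WT replicate 2 was at least 2-fold above WT replicate 3 at 146 genes, 59.3%, and the reverse was found at 0 genes. Among all 19724 genes these shares were 3.64% and 3.95%. Within mop1, replicate 1 was at least 2-fold above replicate 2 at 84 genes, 34.1%, and replicate 2 at least 2-fold above replicate 1 at 10 genes, 4.07%. Over all genes these shares were 2.77% and 2.08%.

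The 246 genes were more variable over the other 5 libraries than genes at large. The highest of the 5 was a median of 4.23-fold above the lowest, with quartiles of 2.64 and 8.32, against a median of 1.60 over all 19724 genes. Only 23 genes, 9.35%, stayed within 2-fold, where 72.5% of all genes did. At the steady end, 1 gene had 525, 457 and 4.36 normalized counts in mop1 replicates 1 to 3, against 608, 469 and 466 in WT replicates 1 to 3, so that its other 5 libraries lay within 1.33-fold. The 246 genes also had lower counts, with a median lowest value of 95.1 against 384 over all genes.

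The grade was steeper where the loss was deeper. Genes at which mop1 replicate 3 was lowest were followed from those less than 2-fold below the lowest other library to those at least 32-fold below or without a read. Over these classes of 3529, 536, 137, 76, 51 and 119 genes, the median deviation of WT replicate 2 was 0.09, 0.25, 0.42, 0.63, 0.79 and 1.00 on the log2 scale. The medians of WT replicate 3 were -0.11, -0.26, -0.31, -0.12, -0.45 and -0.59, below 0 throughout and not in an even series. For mop1 replicate 2 they were -0.03, -0.02 and -0.09 in the first 3 classes, and -0.61, -0.30 and -0.50 in the last 3. The low level in mop1 replicate 2 was thus seen mainly where the loss reached 8-fold. The order of WT libraries described above was found at 33.1% of genes in the first class and at 85.7% in the last.

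**Figure D4:**
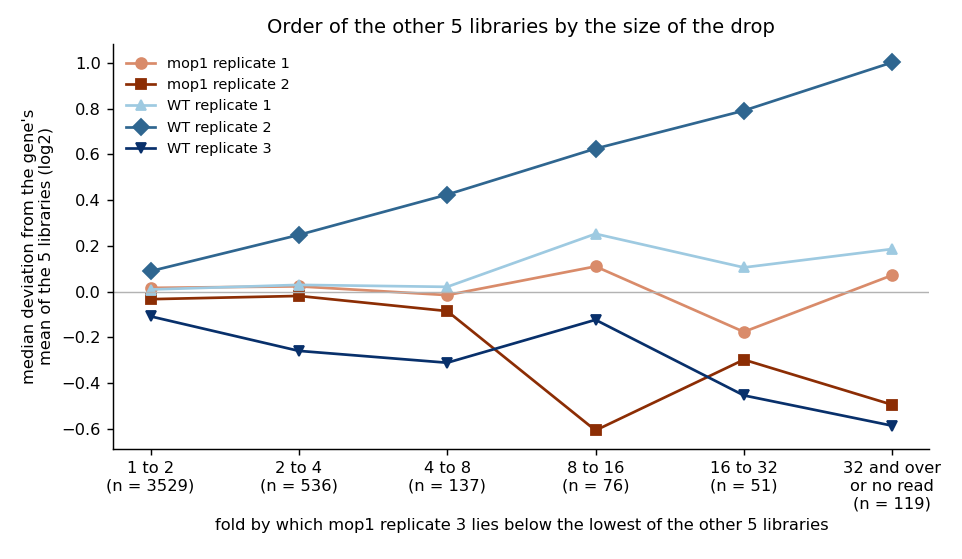
Median deviation of each of the other 5 libraries from a gene's mean over them (log2), for classes of genes by the fold at which mop1 replicate 3 lies below the lowest of the 5; n is the number of genes per class, and the last 3 classes hold the 246 genes. WT replicate 2 is higher in each class than in the one before, from 0.09 to 1.00, and mop1 replicate 2 lies at -0.09 or above in the first 3 classes and at -0.30 or below in the last 3.

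Across the 246 genes, the size of the loss, taken as the log2 distance of mop1 replicate 3 from the mean of the other 5, was related to the deviation of WT replicate 2 with a Pearson r of 0.46 and a Spearman rho of 0.51. For the deviations of mop1 replicate 2 and WT replicate 3, Pearson r was -0.30 and -0.22. These values describe 246 genes that share their libraries, and the loss and the deviations share the same mean of 5 libraries.

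The genes can be set out by the library that was lowest of the 5, which makes sets that share no gene and fixes how the lowest library stands in each. At the 116 genes with their lowest value in mop1 replicate 2, the median deviation was -1.31 in mop1 replicate 2 and -0.05 in WT replicate 3, with medians of 100.1 and 313 normalized counts. At the 98 genes with their lowest value in WT replicate 3, it was -0.04 in mop1 replicate 2 and -1.07 in WT replicate 3, with medians of 246 and 101 normalized counts. WT replicate 2 was the highest library in both sets, at 80 of 116 and 79 of 98 genes. At the 117 genes given above, mop1 replicate 2 and WT replicate 3 were both below the other 3 libraries. In each of the sets here, though, the one that was not lowest lay close to the gene's mean, at -0.05 or -0.04. Across the 246 genes the deviations of these libraries had a Pearson r of -0.46, against -0.45 over all 19724 genes. The deviations share the same mean, which by itself pulls such an r to the negative side. The median normalized count in mop1 replicate 3 was 4.36 in the first set and 1.82 in the second, and 24 and 26 genes had no read there.

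**Figure D5:**
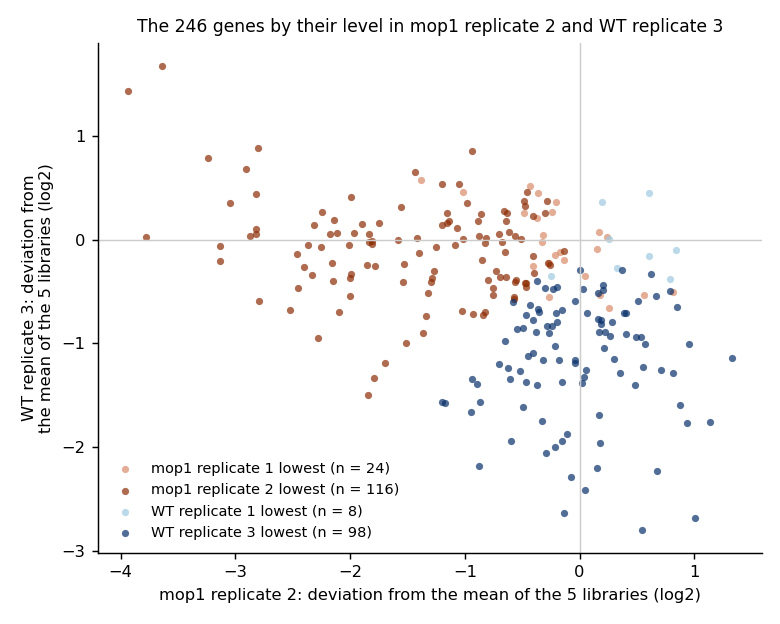
Each of the 246 genes by its deviation from its mean over the other 5 libraries (log2) in mop1 replicate 2 (x axis) and in WT replicate 3 (y axis), coloured by which of the 5 libraries was lowest. The colours follow from how the sets were made. Of the 246 genes, 62 lie above 0 on the x axis and 65 above 0 on the y axis.

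A small subset was strongly reduced in mop1 replicate 2 as well as mop1 replicate 3. At 28 of the 246 genes, mop1 replicate 2 lay at least 4-fold below mop1 replicate 1 and all WT libraries. Their medians were 1003, 67.3 and 3.27 normalized counts in mop1 replicates 1, 2 and 3, against 1008, 1168 and 607 in WT replicates 1, 2 and 3. These genes were thus near the WT level in mop1 replicate 1, far lower in mop1 replicate 2 and almost lost in mop1 replicate 3. The most extreme had 1022, 56.4 and 5.09 normalized counts in mop1 replicates 1 to 3, against 2043, 1845 and 2368 in WT replicates 1 to 3. Among all 19724 genes, 51 had mop1 replicate 2 at least 4-fold below the other 4 libraries, so that 54.9% of those 51 were among the 246. For WT replicate 3 the same limit held at 7 of the 246 genes and 23 of all, or 30.4%. For mop1 replicate 1, WT replicate 1 and WT replicate 2 it held at 0 of the 246 and at 2, 1 and 20 genes of all.

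The study's comparison of mop1 with WT was fitted by limma over 23150 genes, of which all 246 passed the filter on low values, as their selection ensures. None of the 246 passed an adjusted p of 0.05, and 0.0216% of all genes tested did. By limma all 246 had a negative log2 fold change, though 3 were positive after quantile normalization, 1 without WT replicate 2, and 13 by edgeR. The limma values ran from -4.98 to -0.13, with a median of -2.36 (-0.02 over all genes tested) and a median standard error of 1.51. Their lowest adjusted p by limma was 0.388, and 13 had an unadjusted p under 0.05, all lower in mop1, where 6.25% of all genes were lower and 4.14% higher at that limit. Among the 246, edgeR's quasi-likelihood test called 0 and DESeq2's Wald test called 1, lower in mop1 (0.0130% and 1.92% of all genes). These genes were chosen by their low value in a mop1 library, so nothing is read from the direction.

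Without mop1 replicate 3, the remaining 5 libraries allow a comparison of mop1 replicates 1 and 2 with WT. It is only partly separate from the choice of genes, which used the lowest value of these 5 libraries but not the difference between the genotypes among them. By limma, 0 of the 246 genes passed an adjusted p of 0.05, against 208 of 23150 genes, or 0.898% (0.717% higher and 0.181% lower in mop1). At an unadjusted p under 0.05 there were 42 of the 246, 17.1%, with 7 higher and 35 lower in mop1, where 8.89% of all genes were higher and 11.2% lower at that limit. Leaving out 1 WT library moved these numbers. Without WT replicate 2 there were 15 higher and 23 lower, where 1921 of all 23150 genes were higher and 2349 lower. Without WT replicate 3 there were 6 higher and 49 lower, where 1825 of all genes were higher and 1994 lower. Leaving out a mop1 library leaves 1 in that arm, so counts at this limit are not given for it. The median log2 fold change was -0.49, against -0.07 over all genes tested, with 60 of the 246 genes positive and 186 negative. It was -0.11 without mop1 replicate 2 (100 positive), -0.12 without WT replicate 2 (105 positive), -0.71 without mop1 replicate 1 (59 positive) and -0.86 without WT replicate 3 (25 positive). With the replicate number as a block it is the same -0.86 by design. WT replicate 3 then has no partner of its number and does not enter the estimate. The shift below 0 thus rested largely on mop1 replicate 2 and WT replicate 2. The values of mop1 replicates 1 and 2 both lay below all WT values at 52 genes, 21.1%, and above them at 9 genes, 3.66%, where 23.7% and 16.8% of all genes did so.

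The outcome of that comparison varied with the tool and with 1 library. edgeR's quasi-likelihood test called 0 of the 246 genes (1.26% of all). DESeq2's Wald test called 22, or 8.94%, with 5 higher and 17 lower in mop1. Of all genes it called 8.59%, with 1250 higher and 738 lower. Without mop1 replicate 1, limma called 11 of the 246, all lower in mop1 replicate 2, against 0.449% of all genes. That arm then held 1 library, which is assumed to vary like the WT libraries. With no filter on low values limma called 2 of the 246, 0.813%, all lower in mop1. Of all 32183 genes in that fit it called 1.20% in either direction, of which 80 genes were lower. At an adjusted p of 0.1 it called 6 of the 246, 2.44%, all lower in mop1. Of all 23150 genes it then called 4.38% in either direction, of which 384 genes were lower. For 128 of the 246 genes the 95% interval excluded changes beyond 4-fold, and for 14 it excluded changes beyond 2-fold, so that differences of 2-fold could not be set aside for most of them.

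Values of single genes show both directions among the 5 libraries. The highest fold was at Zm00001eb154560, with 330, 255 and 0 normalized counts in mop1 replicates 1 to 3, against 49.96, 141 and 33.5 in WT replicates 1 to 3. Both of its first mop1 libraries lay above all WT libraries, and limma gave a log2 fold change of 2.21 (standard error 0.59, adjusted p 0.125). Zm00001eb413190 followed, with 118, 95.1 and 3.64 normalized counts in mop1 replicates 1 to 3, against 38.1, 38.6 and 55.8 in WT replicates 1 to 3. Its log2 fold change without mop1 replicate 3 by limma was 1.27 (standard error 0.32, adjusted p 0.112). Neither passed the threshold.

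In the other direction, the largest fold belonged to a gene with 2335, 261 and 29.8 normalized counts in mop1 replicates 1 to 3, against 5282, 10888 and 10395 in WT replicates 1 to 3. All mop1 values were below WT, and those of the first pair of mop1 libraries differed widely, and limma gave a log2 fold change of -3.43 (standard error 0.87, adjusted p 0.113). The lowest p was at a gene with 47.4, 47.9 and 2.91 normalized counts in mop1 replicates 1 to 3, against 181, 413 and 189 in WT replicates 1 to 3. Its log2 fold change without mop1 replicate 3 by limma was -2.32 (standard error 0.40, adjusted p 0.0588). At the gene with the highest counts, Zm00001eb383600, mop1 replicates 1 and 2 averaged 26633 ± 1433 normalized counts (SD, n = 2) and WT 52678 ± 11319 (SD, n = 3), and limma gave a log2 fold change of -0.96 and an adjusted p of 0.134. For Zm00001eb366340 the corresponding means were 13676 ± 980.3 (SD, n = 2) and 22848 ± 3707 (SD, n = 3), with a log2 fold change of -0.73 and an adjusted p of 0.163.

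The position of mop1 replicate 1 in the grade depended on the level of the gene. Its median deviation was 0.28 at genes with a lowest value of 20 to 50, 0.09 at 50 to 200, -0.06 at 200 to 1000 and -0.31 at 1000 or more. WT replicate 2 lay at 0.95, 0.92, 0.75 and 0.73 in the same classes and WT replicate 3 at -0.54, -0.36, -0.39 and -0.48. At the 25 genes of the highest class, mop1 replicate 1 was therefore lower than mop1 replicate 2, whose median there was -0.24.

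In ID order the genes were spread over the whole table, with some close neighbours. In 10 blocks of equal numbers of rows, the 246 genes made up 0.911% to 1.93% of the genes with at least 20 in the other 5 libraries. At 13 of the 246 genes, 5.28%, the next row of the table was also among them, against 0.639% of all 19724 genes, and at 39, 15.9%, there was another within the next 10 rows, against 5.61%. In all, 24 genes lay in 11 runs of direct neighbours, with at most 3 in a run. One run of 3 had 752, 1204 and 282 normalized counts in mop1 replicate 1, 104, 45.6 and 28.6 in mop1 replicate 2, and 0.727, 0 and 0 in mop1 replicate 3. The same 3 genes had 707, 740 and 439 in WT replicate 1, 680, 778 and 380 in WT replicate 2, and 330, 355 and 284 in WT replicate 3. These 3 neighbours thus shared the reduced level in mop1 replicate 2. The other run of 3 had 83.5, 5504 and 118 normalized counts in mop1 replicate 2, against 161, 4876 and 852 in mop1 replicate 1. Its middle gene was thus not lower in mop1 replicate 2 than in mop1 replicate 1. Rows are used only as an order, and distances along chromosomes were not analysed here.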

How the data were processed

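Gene-level signal of 6 libraries was deposited by the authors as normalized counts. DESeq2, HTSeq, SAMtools, HISAT2 and Trimmomatic 0.39 are named in the submitters' processing notes. The genome build is not given in the sources used here, nor are strandedness and settings. In every column 100% of the deposited values were whole multiples of the smallest, within 0.01 of a read, and dividing by it gave back read numbers. Read counts were 22635163 to 26531475 per library.

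limma 3.58.1 (R 4.3.3) was fitted to log2(normalized count + 1) over all 23150 genes with at least 10 in at least 3 libraries, with trended and robust empirical Bayes steps, two-sided, and Benjamini-Hochberg adjustment at 0.05. Fold changes on this scale understate the change of low genes. edgeR 4.0.16 and DESeq2 1.42.0 on the recovered reads, other scalings, filters and pseudocounts, a replicate block and leaving out each library were alternatives. Deviations from the group mean correlated across genes at 0.15, 0.25 and 0.49 between mop1 and WT libraries of one number, so the numbers were taken as pairs in the blocked fits. This rests on the data alone, and the value for mop1 replicate 1 was higher against WT replicate 2 (0.33) than against its own number.

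The genes and tests were chosen with earlier results of these data known. The genes given by ID are the 2 with the highest lowest value over the other 5 libraries and the 2 with the largest positive fold in mop1 replicates 1 and 2 against WT. Other single genes, given without ID, and the subset low in mop1 replicate 2 were chosen after their values were seen.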

Additional observations from a re-analysis of the deposited data

How the results depend on the processing

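The number of genes chosen, 246, became 383 with a limit of 4-fold, 170 with 16-fold, 301 and 171 with a lowest value of 10 and 50, 251 with TMM scaling and 210 with quantile normalization, of which 209 were among the 246. Leaving out 1 of the other 5 libraries gave 249 to 349, the highest without mop1 replicate 2. The median deviations of the 5 libraries kept their sign under 2 scalings, 2 pseudocounts and 2 fold limits, with WT replicate 2 at 0.71 to 0.96, mop1 replicate 2 at -0.48 to -0.36 and WT replicate 3 at -0.54 to -0.39. Without the 10 genes of the highest lowest value, the share of the library total was 0.874%, 0.531% and 0.0137% in mop1 replicates 1 to 3, against 1.01%, 1.49% and 0.678% in WT replicates 1 to 3.

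In mop1 replicates 1 and 2 against WT, 0 genes were called under pseudocounts of 0.5 and 5, a mean of at least 50, TMM and quantile scaling, no trend, and edgeR. No filter gave 2 (1.20% of all genes in either direction), an adjusted p of 0.1 gave 6 (4.38%) and DESeq2 gave 22. The 2 and the 6 were all lower in mop1, where 80 and 384 of all genes were called lower. The cause was not tested. Leaving out 1 library gave 0 to 11, the 11 without mop1 replicate 1. In mop1 against WT, DESeq2 gave 1, and leaving out 1 library gave 0 to 0. With the replicate number as a block, 0 of the 246 genes were called in both comparisons, as in the main fits. Over all genes tested, the block called 118 in mop1 replicates 1 and 2 against WT, where the main fit called 208. In mop1 against WT, both fits called 5. In mop1 replicates 1 and 2 against WT, the 4 genes given by ID had the sign of the main fit in all 16 alternatives. Not all of these alternatives could change the sign. No filter, a mean of at least 50, no trend and an adjusted p of 0.1 leave the log2 fold change as it is. The replicate block gave the same fold changes as leaving out WT replicate 3, so it is no separate check. The 4 genes passed only with DESeq2. In mop1 against WT, Zm00001eb154560 and Zm00001eb413190 had log2 fold changes of -0.52 and -0.24 by limma, 0.05 and 0.07 after quantile normalization, and 1.43 and 0.77 by edgeR. Below 20 normalized counts in any of the other 5 libraries, an 8-fold loss was not assessed.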
